A study of Mus musculus with 36 samples.

Results

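The 12 mouse lung tumours with the highest level of a Krt8-led set of alveolar transitional genes, called Krt8-high here, were compared with the 12 that had the lowest, called Krt8-low. Each of the 36 tumours of the study was scored by the mean log2(CPM + 1) of Krt8, Krt18, Krt19, Cldn4, Sfn and Lgals3, with CPM taken over the library total (read counts scaled to a common total). Within each of the 4 sample groups of 9 tumours, the 3 highest scores entered the Krt8-high class and the 3 lowest the Krt8-low class. The 12 tumours that ranked 4 to 6 were not compared and serve below as a separate set. The classes were thus chosen by the measured levels of these 6 genes, whose values are described and not tested, and they are left out of every count of called genes.

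RNA was sequenced from EGFP-positive neoplastic cells sorted out of lung tumours that carried the EML4-ALK fusion as variant 1 or variant 3. In each variant, tumours received sgNeo, which left Setd2 intact, or sgSetd2, which targeted this H3K36 methyltransferase. This gave the groups Variant 1 Neo, Variant 1 Setd2, Variant 3 Neo and Variant 3 Setd2. Every group carries the fusion, and no group is normal lung. The titles hold 12 codes, 3 codes per group and 3 tumours per code; what a code stands for is not stated. The labels used here do not state how the fusion and the guides were delivered, nor the strain, age, sex and time after induction.

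Alveolar type 2 (AT2) cells make surfactant, a film of phosphatidylcholine, cholesterol and a few proteins that is stored in lamellar bodies. When they turn towards the flat alveolar type 1 (AT1) fate after injury, they can pass through a transitional state that is marked by Krt8 and other simple keratins, stress-response genes and cytoskeletal change, and cells of like expression have been described in lung adenocarcinoma. Sterol and fatty acid synthesis in these cells is driven by the SREBP transcription factors, which are held back by Insig1 when sterols are plentiful.

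The score ran from 6.42 to 9.40 over the 36 tumours, and its spread differed between groups. Variant 1 Neo scores averaged 8.55 in the Krt8-high class and 6.63 in the Krt8-low class, a gap of 1.92. The gap was 1.56 in Variant 1 Setd2 and 0.83 in Variant 3 Setd2. In Variant 3 Neo it was 0.54, and all 9 scores of that group lay within 0.68. Scores above 8 occurred in 5 tumours only, 2 of Variant 1 Neo, 2 of Variant 1 Setd2 and 1 of Variant 3 Setd2. The class is therefore a rank within a group: a Variant 3 Neo tumour at 7.37 counts as Krt8-high, while a Variant 3 Setd2 tumour at 7.43 counts as Krt8-low. The border was thin in places, since in Variant 1 Neo the last Krt8-high tumour scored 7.453 and the next tumour 7.451, and the first Krt8-low tumour scored 6.815 and the one before it 6.823.

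**Figure D1:**
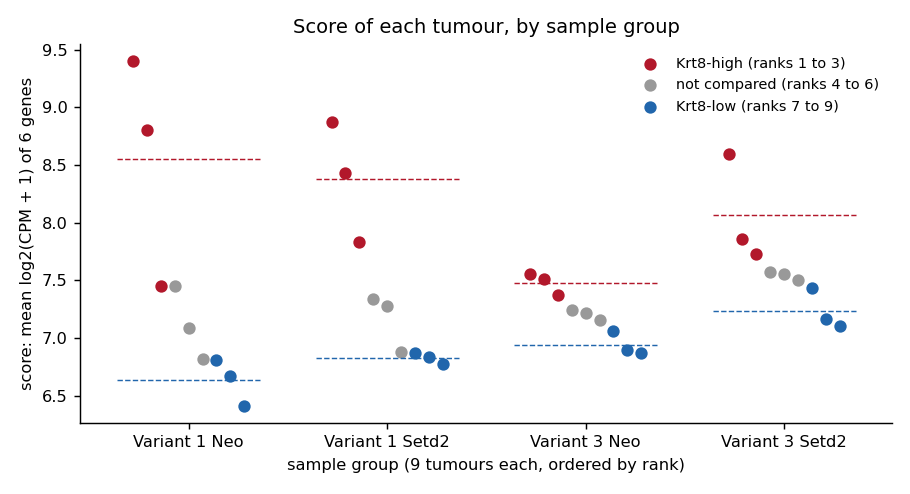
Score of each tumour (mean log2(CPM + 1) of the 6 scored genes) by sample group, 9 points per group in order of rank; dashed lines are the class means. The Krt8-high and Krt8-low means lie 1.92 apart in Variant 1 Neo and 0.54 apart in Variant 3 Neo.

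Krt8 itself was abundant in every tumour. Its CPM, normalised by TMM factors as for all gene levels below, was 793 to 1718 (median 977) in Krt8-high tumours and 588 to 845 (median 649) in Krt8-low tumours. The most uneven scored gene was the tight junction gene Cldn4, with a median CPM of 8.86 in the high and 2.95 in the low class. Lgals3, which encodes galectin-3, had medians of 386 and 171 CPM. None of the 6 genes was silent in the low class, so the classes differ in degree. Both classes were also strongly AT2-like: Epcam, an epithelial surface protein, stood between 276 and 855 CPM in all 36 tumours, and surfactant protein C (Sftpc) took a median of 9.21% of counts in Krt8-high and 10.9% in Krt8-low tumours.

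Library totals ran from 17893071 to 137152480 counts, with a median of 38113547 in the high and 40367510 in the low class. The mean log2 total differed by 0.18, with an exact two-sided permutation p of 0.513 over 160000 splits within groups. The TMM factors ran from 0.948 to 1.224 (median 1.055) in the high and 0.8685 to 1.106 (median 0.929) in the low class. The score took CPM by library total, without these factors, so this difference in library composition enters the rank. The 4 surfactant protein genes took a median of 11.25% of counts in the high and 14.69% in the low class. Tumours of 4 codes fell in both classes (CE467, CE475, CE429 and CE450). Of the other codes, 4 gave only Krt8-high tumours (CE468, CE479, CE433 and CE456) and 4 only Krt8-low tumours (CE472, CE483, CE428 and CE454), so for these the class and the code cannot be told apart. Fibroblast markers moved with the class in some libraries. Their summed level (9 genes, all tested) was 7.73 to 455 normalised CPM (median 40.0) in Krt8-high and 0.534 to 113 (median 8.78) in Krt8-low tumours. Col1a1, the main collagen chain of fibroblasts, exceeded 10 CPM of the library total in 4 Krt8-high tumours (CE468 tumour 4, CE467 tumour 1 and CE479 tumours 2 and 4) and 1 Krt8-low tumour (CE454 tumour 3). The share of mitochondrial counts had a median of 2.52% in the high and 1.47% in the low class. The part of these differences in the results below was not tested beyond a few fits given below. These leave out those 5 tumours, take Col1a1, the fibroblast list or the macrophage list as a covariate, or score by TMM-normalised CPM. In bulk samples, fewer cells of a type and less RNA per cell cannot be told apart.

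Of 18564 genes tested with edgeR's quasi-likelihood test, with sample group as a covariate, 1169 (6.3%) differed between the classes at a Benjamini-Hochberg adjusted p under 0.05. In Krt8-high tumours 453 genes (2.44%) were higher and 716 (3.86%) lower. Larger changes were mostly upward: 145 of the higher and 25 of the lower genes changed by at least 2-fold. The median log2 difference over all genes was 0.08. The sign was the same in all 4 groups for 431 of the 453 higher and 700 of the 716 lower genes, and for 31.0% of all genes tested; calling with group as a covariate selects for such genes, so nothing is read from these shares. A separation of every Krt8-high tumour from every Krt8-low tumour was rare, with 0 genes higher throughout and 4 (0.0215%) lower throughout.

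These counts depend heavily on which tumours are compared. Leaving out 1 tumour gave 511 to 1560 calls and leaving out 1 code gave 148 to 1105. The count was 148 without CE456, 215 without CE479, 319 without CE483 and 392 without CE429. It was 75 without the 5 tumours that scored above 8, of which 71 were among the 1169. Without the 5 tumours with Col1a1 above 10 CPM edgeR called 0 genes, although 2874 had an unadjusted p under 0.05 and 1167 of the 1169 genes kept their sign. The 4 Krt8-high tumours among these all scored above 8. The fits without high Col1a1 and without scores above 8, here and below, thus leave out mostly the same tumours. They are not separate checks, and a high score and high Col1a1 cannot be told apart by them. With Col1a1 as a covariate 356 genes were called, 314 of them among the 1169. With the mean of the fibroblast list as a covariate the count was 1046, and with that of the macrophage list 1059. With the title code as a replicate block, so that only the 4 codes with tumours in both classes inform the test, edgeR called 0 genes (750 at an unadjusted p under 0.05), and again 1167 kept their sign; these fits share tumours with the main one. Scoring with TMM-normalised CPM, which kept 11 of the 12 Krt8-high and 8 of the 12 Krt8-low tumours, also gave 0 calls (2097 at an unadjusted p under 0.05). DESeq2 on the original classes gave 2275. Each adjusted p below is from the comparison of 12 with 12 tumours and carries this limit.

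**Figure D2:**
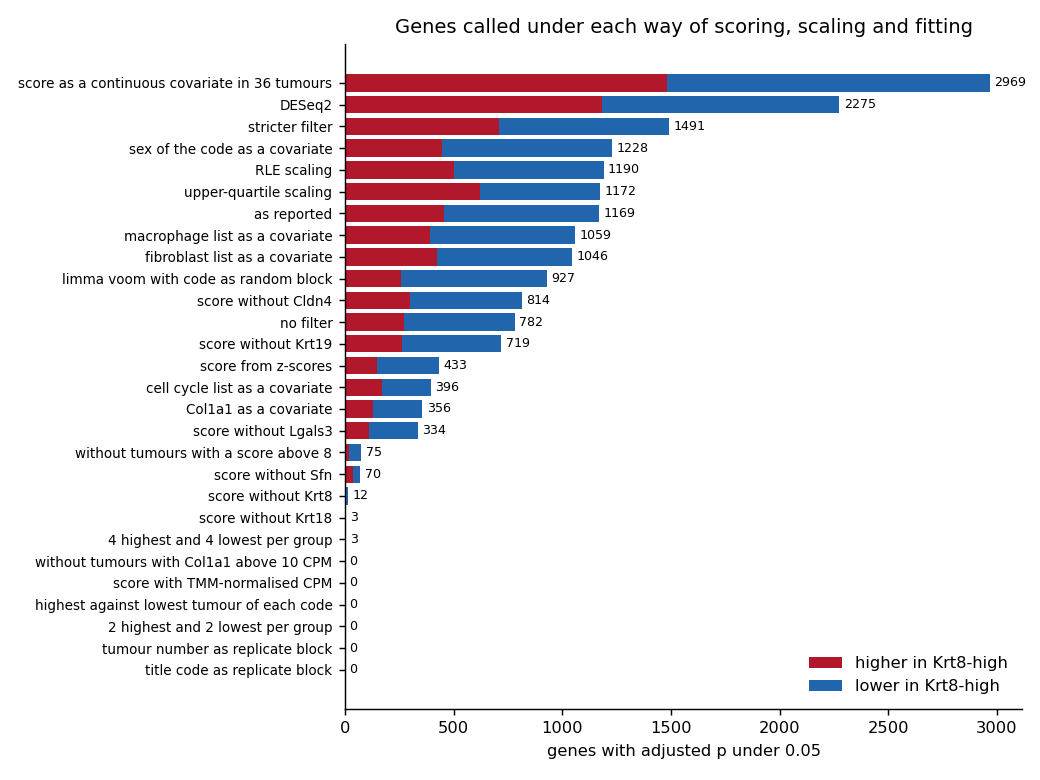
Genes with adjusted p under 0.05 (bar length; red higher and blue lower in Krt8-high tumours) for the comparison as reported and for 27 other ways of scoring, scaling, filtering and fitting. The count is 1169 as reported, 2969 with the score as a continuous covariate in 36 tumours, and 0 in 6 of the alternatives.

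Lipid synthesis genes were among the lower genes. Of 17 genes of fatty acid synthesis and lamellar body lipids, 9 fell (3.86% of all genes did), 0 rose and 8 did not pass. The list's median log2 difference was -0.70 against 0.08 over all genes. Chpt1, which completes phosphatidylcholine by joining phosphocholine to diacylglycerol, had the smallest p of the list. Its level was 90.6 to 159 normalised CPM (median 123) in Krt8-high and 151 to 248 (median 209) in Krt8-low tumours, so that the classes overlapped only at their edges. The log2 difference was -0.70 (SE 0.09, n = 12 and 12, edgeR adjusted p = 0.00121), and it lay between -0.53 and -0.84 in the 4 groups. The gene lies at chr10:88452745-88504073 on the minus strand (GRCm38, GENCODE M21).

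Fasn, the fatty acid synthase, stood at 383 to 2239 CPM (median 1049) in Krt8-high and 1366 to 3119 (median 2267) in Krt8-low tumours. It was lower in the high class of each group, with the lowest value of the class in a Variant 1 Neo tumour and the highest in a Variant 3 Setd2 tumour. The log2 difference was -0.95 (SE 0.16, edgeR adjusted p = 0.00621). Pcyt1a, the rate-limiting enzyme of phosphatidylcholine synthesis, fell by 0.72 on the log2 scale, from a median of 100 to 60.2 CPM. Lpcat1, which remodels surfactant phosphatidylcholine, fell by 0.70, and Acly, which supplies cytosolic acetyl-CoA, also fell by 0.70. The desaturases Fads1 (-0.88) and Fads2 (-0.79), the NADPH source Me1 (-0.48) and the lipogenic transcription factor Srebf1 (-0.49) were the other members that fell. The desaturase Scd1 had the largest negative value of the list, -1.28, but did not pass (SE 0.52, adjusted p = 0.137). Without the 5 tumours with Col1a1 above 10 CPM the list's median was -0.60, and without those scoring above 8 it was -0.48 with 2 members called. With the TMM-normalised score it was -0.48, with 0 members called.

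**Figure D3:**
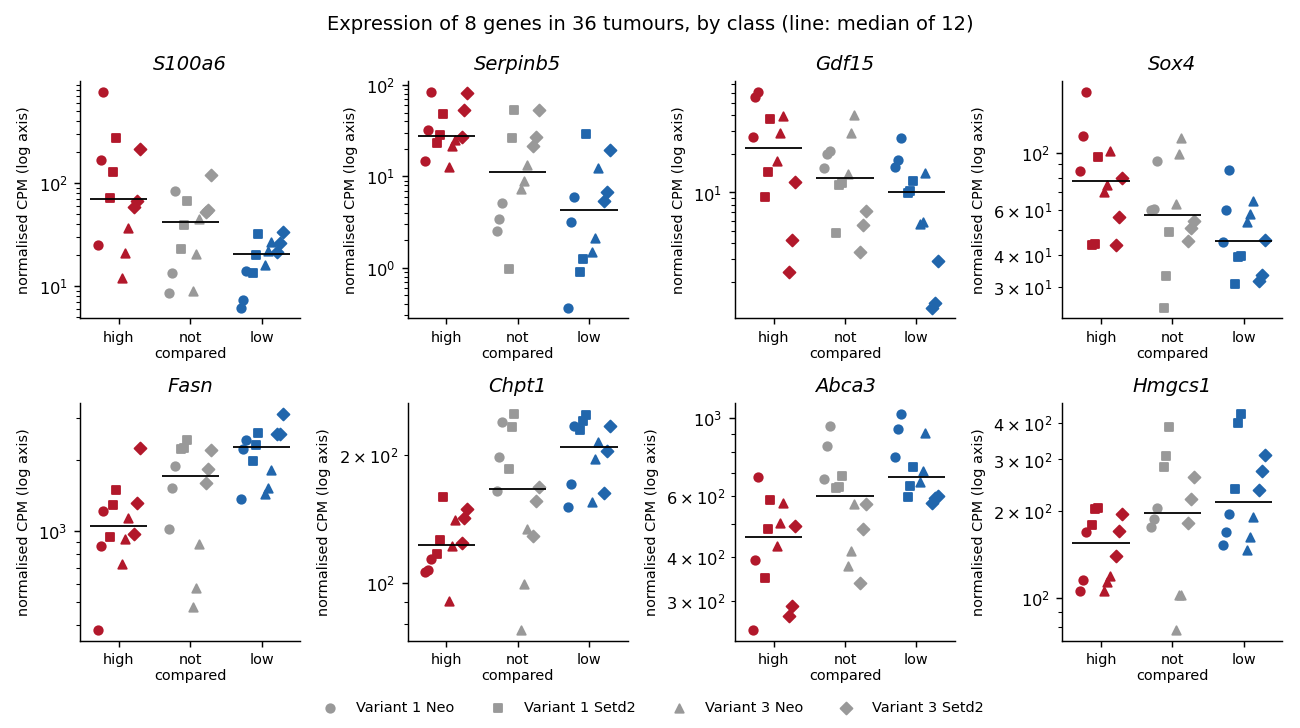
Normalised CPM (log axis) of 8 genes in all 36 tumours, by class; each point is a tumour, the marker gives its sample group and the line the median of 12. S100a6, Serpinb5, Gdf15 and Sox4 have higher medians in Krt8-high tumours, and Fasn, Chpt1, Abca3 and Hmgcs1 lower ones. The median of the 12 tumours that were not compared lies in between for each gene. That held for 91.5% of called genes and 46.0% of all genes tested, so it is not particular to these 8 genes.

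Calls in the cholesterol pathway were in the same direction. Of its 22 genes 10 fell, where 3.86% of all genes did, 0 rose and 12 did not pass, with a median of -0.44. Lss (lanosterol synthase), the enzyme that closes the sterol rings, was at 17.3 to 48.4 CPM (median 31.1) in Krt8-high and 33.3 to 78.7 (median 45.6) in Krt8-low tumours. Its log2 difference was -0.66 (SE 0.10, edgeR adjusted p = 0.00255). Hmgcs1, which makes the HMG-CoA used for sterols, ran from 106 to 205 CPM (median 154) against 147 to 430 (median 215), and the 2 highest low values came from CE483 tumours. It fell by 0.63 (SE 0.10, adjusted p = 0.0043). Pmvk, a mevalonate pathway kinase, fell by 1.28, and Insig1 by 0.69. Dhcr7, Cyp51, Idi1 and Sc5d also fell, by 0.46 to 0.63 on the log2 scale. Sqle (-0.45, adjusted p = 0.17) and Srebf2, which encodes the SREBP of the sterol pathway (-0.41, adjusted p = 0.0687), did not pass. The list's median was more negative in the variant 3 groups (-0.59 in Neo and -0.77 in Setd2) than in the variant 1 groups (-0.16 in Neo and -0.32 in Setd2), as differences of class means with no test. It was -0.53 without the 5 tumours with high Col1a1, and -0.49, with 3 members called, without those scoring above 8. With the TMM-normalised score it was -0.27, with 0 members called.

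Upstream sequence was read for the genes that fell in the fatty acid, cholesterol and AT2 lists, because SREBP acts through a short promoter element. RefSeq promoters (GRCm38.p6) matched 21 of these 25 genes. The letters TCACNCCAC, the core of the sterol regulatory element, were searched on both strands of the 250 bases before each start, after the results were known. They occurred for 3 of the 21 genes (14.3%) and for 1.22% of all 27025 genes of the table. The 3 stretches follow, 5′ to 3′ on the strand of the gene, with the matching letters in capitals.

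Hmgcs1: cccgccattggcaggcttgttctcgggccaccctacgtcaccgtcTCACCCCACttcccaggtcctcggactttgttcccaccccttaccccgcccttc
Pcyt1a: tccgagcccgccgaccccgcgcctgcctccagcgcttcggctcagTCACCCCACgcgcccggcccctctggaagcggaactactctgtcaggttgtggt
Abca3: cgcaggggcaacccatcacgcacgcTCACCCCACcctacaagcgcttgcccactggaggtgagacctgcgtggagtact

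The Hmgcs1 stretch is chr13:119690169-119690267 and its match ends 129 bases before the start. The Pcyt1a stretch is chr16:32430760-32430858 with the match ending at 108 bases, and the Abca3 stretch is chr17:24351773-24351851 with the match ending at 217 bases. All lie on the plus strand. A match describes letters and is no measured binding site, and the other 18 genes had no match to these letters in this window. Members of the 3 lists that did not fall were not counted separately, so the share with a match is not tied to the fall. Nothing is drawn from these letters about SREBP.

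Of 22 AT2 genes 7 fell, where 3.86% of all genes did, 0 rose and 15 did not pass, with a median of -0.61. Abca3, the lamellar body lipid transporter whose upstream stretch is printed above, was at 248 to 680 CPM (median 456) in Krt8-high and 574 to 1026 (median 682) in Krt8-low tumours. The 3 lowest values were those of a CE467 tumour and both CE456 tumours, all Krt8-high. The difference was -0.71 (SE 0.14, edgeR adjusted p = 0.0101). Sftpa1, a surfactant collectin, had the largest called difference of the list, -1.14 (SE 0.32, adjusted p = 0.0345), and -0.75 without the tumours scoring above 8. It ranged from 1145 to 18280 CPM (median 11830) in the high and 9865 to 37390 (median 21500) in the low class. The phosphate transporter Slc34a2 fell by 0.85, Lamp3, a lamellar body membrane protein, by 0.78, the collectin Sftpd by 0.51 and the mucin Muc1 by 0.47. Lpcat1 counts in this list too. The surfactant protein genes Sftpc and Sftpb did not pass: Sftpc had a value of -0.41 (SE 0.22, adjusted p = 0.26) and Sftpb -0.23 (SE 0.20, adjusted p = 0.522). Nkx2-1, the lineage factor of lung epithelium, was level between classes (-0.01, SE 0.11, adjusted p = 0.984). The list's median was -0.46 without the tumours of high Col1a1, and -0.40, with 1 member called, without those scoring above 8. With the TMM-normalised score it was -0.43, with 0 members called.

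Among the genes that rose, those of the transitional state were examined outside the 6 that set the score. Of 31 such genes 8 rose, where 2.44% of all genes did, 0 fell and 23 did not pass, with a median of 0.77. This list shares its subject with the score and is no independent evidence of the state. S100a6, a calcium-binding protein of the cytoskeleton, was at 11.9 to 771 CPM (median 69.6) in Krt8-high and 6.14 to 33.5 (median 20.6) in Krt8-low tumours. The highest level was in the tumour with the highest score, CE468 tumour 4, and the classes overlapped within Variant 3 Neo. The log2 difference was 2.52 (SE 0.61, edgeR adjusted p = 0.0224), and 0.99 without the tumours scoring above 8. Gdf15, a secreted stress factor, was at 2.38 to 61.1 CPM (median 22.3) against 1.26 to 26.4 (median 10.1). It rose by 1.42 (SE 0.28, adjusted p = 0.01), and by 0.93 to 1.75 in each of the 4 groups. Ndrg1, a stress and hypoxia gene, rose by 1.75 (0.89 without the tumours scoring above 8), Tnip3, a regulator of NF-kB signalling, by 2.20 (0.87), and Sprr1a, a cornified envelope precursor, by 1.39. Clu, the chaperone clusterin, rose by 1.05, the keratin Krt7 by 0.91 (0.36) and S100a11 by 0.46 (0.22). The damage gene Cdkn1a had a value of 0.36 (adjusted p = 0.242), and Ccnd1 was at -0.40 (adjusted p = 0.19), so the list did not move as a whole. Its median by group was 1.04 in Variant 1 Neo, 0.59 in Variant 1 Setd2, 0.24 in Variant 3 Neo and 0.06 in Variant 3 Setd2. Without the 5 tumours of high Col1a1 the median was 0.21, and without those scoring above 8 it was 0.18, with 0 members called in each. With the TMM-normalised score it was 0.63, again with 0 called.

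**Figure D4:**
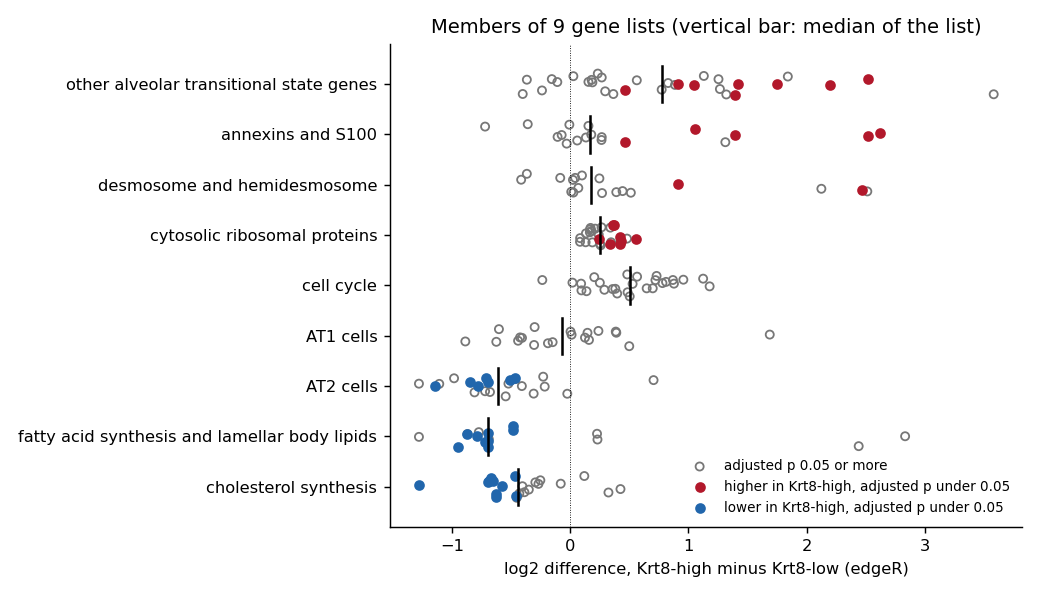
Log2 difference (Krt8-high minus Krt8-low, edgeR) of each tested member of 9 gene lists; filled points have an adjusted p under 0.05 and the vertical bar is the list's median. The cholesterol, fatty acid and AT2 members lie mostly left of 0, and the transitional and ribosomal members mostly right of it.

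S100 proteins and annexins bind calcium and membranes, and 5 of 18 rose, where 2.44% of all genes did, while 0 fell. Besides S100a6 and S100a11 these were S100a14, at 35.0 to 178 CPM (median 62.3) against 8.76 to 48.1 (median 31.9), S100a10, which rose by 1.06, and Anxa8, which rose by 2.62. The S100a14 difference was 1.398 (SE 0.30, edgeR adjusted p = 0.0139), and its ranges overlapped. Without the tumours scoring above 8 the differences were 0.83 for S100a14, 0.56 for S100a10 and 0.84 for Anxa8. The list's median, 0.16, was near that of all genes. Of 14 tested keratins outside the score 3 rose: Krt7 and, at very low levels, the basal and stratified keratins Krt6a and Krt14. Over all genes 2.44% rose. Krt6a had counts in 6 Krt8-high and 0 Krt8-low tumours, 796 counts against 0. With the low class set to a floor of 3 counts in all, the gene was at least 187-fold higher. Krt14, with 640 counts in 5 tumours against 0, was at least 150-fold higher, and neither gene exceeded 8.90 CPM in any tumour compared. With 0 counts in the low class, Krt6a and Krt14 passed the filter for low counts only through Krt8-high tumours. Their direction was thus fixed in advance, and their calls are no support for a rise of keratins or basal genes. Of the 12 variant 3 tumours compared, CE429 tumour 2 of Variant 3 Neo alone had counts of either gene. The other tested basal markers did not pass: Krt15 had a value of 2.47 (adjusted p = 0.128) and Trp63 of 0.78 (adjusted p = 0.958). DESeq2 called 2 of the 14 keratins. The median of the 14 keratins was 2.13, also with these 2 genes at their bounds. It was 0.37 without the tumours of high Col1a1, 0.28 without those scoring above 8 and 0.55 with the title code as a block. By group it was taken as the log2 ratio of class means, with 0.01 CPM added to each mean. It was 4.23 in Variant 1 Neo, 1.44 in Variant 1 Setd2, 0.01 in Variant 3 Neo and 0.00 in Variant 3 Setd2. For keratins near 0 CPM the added constant weighs on these values, and they are no estimate of a fold. A gene at 0 CPM in both classes gives 0.00, so this value does not show an equal level.

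Of 18 desmosome and hemidesmosome genes 2 rose, where 2.44% of all genes did, 0 fell and 16 did not pass, with a median of 0.17 that is near that of all genes. Itgb4, the hemidesmosomal integrin chain, went from a median of 0.642 to 2.17 CPM, a log2 difference of 2.47 (SE 0.53, edgeR adjusted p = 0.0138), and was higher in the high class of all 4 groups. Without the tumours scoring above 8 it was 1.37. Lama3, a laminin chain that integrins of hemidesmosomes bind, rose by 0.91. Of 18 claudin and tight junction genes 0 rose and 1 fell (Cldn12, by 0.50), where 3.86% of all genes fell. None of 9 integrins outside that list or of 7 galectins was called.

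The other genes named for the size of their rise have varied known functions and form no list. Serpinb5 encodes maspin, a serpin of stratified epithelium, and was at 12.8 to 84.5 CPM (median 27.9) in Krt8-high and 0.365 to 29.0 (median 4.31) in Krt8-low tumours. Only 2 of the 12 low tumours exceeded the lowest high value, CE475 tumour 2 and CE450 tumour 1. The log2 difference was 2.40 (SE 0.57, edgeR adjusted p = 0.0201), and 2.35 without the tumours scoring above 8, where it no longer passed (adjusted p = 0.128). Syt8, a synaptotagmin, had the largest difference of the 15 named for size, 3.52 (SE 0.97, adjusted p = 0.0333), with 1.384 to 64.6 CPM (median 5.64) against 0 to 3.41 (median 1.12). Its 2 values above 50 CPM were in CE468 tumour 4 and CE479 tumour 2, and the difference was 1.94 without the tumours scoring above 8. Ctse (cathepsin E), a protease also made by gastric epithelium, rose by 2.60, the plasminogen activator Plat by 2.74 and the protein C receptor Procr by 2.15. Fxyd3, a regulator of the sodium pump, rose by 3.41, the lactate exporter Slc16a3 by 1.81, the filamin binder Fblim1 by 2.23 and the syntenin relative Sdcbp2 by 1.71. Without the tumours scoring above 8 the values were 1.63 for Fxyd3, 0.84 for Procr, 0.73 for Sdcbp2, 1.52 for Fblim1 and 1.81 for Ctse, and none of the 15 passed.

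The upstream 250 bases of the 15 genes with the largest called rise were searched for TGACTCA, the core of the AP-1 site, on both strands (its other strand reads TGAGTCA), again after the results were known. RefSeq promoters were matched for 11 of the 15, and 4 held the letters (Fblim1, Procr, Sdcbp2 and Syt8), 36.4% against 5.16% of all genes of the table. With any base in the middle (TGANTCA, which includes these matches) it was 5 of the 11, Serpinb5 being the other, and 7.82% of all genes. Of the 15 genes with the largest called fall 10 were matched and 0 held either. The stretches of Procr and Syt8 follow as examples of a match on the strand of the gene, with the letters in capitals.

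Procr: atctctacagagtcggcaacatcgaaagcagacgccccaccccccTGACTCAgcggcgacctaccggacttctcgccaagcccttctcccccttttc
Syt8: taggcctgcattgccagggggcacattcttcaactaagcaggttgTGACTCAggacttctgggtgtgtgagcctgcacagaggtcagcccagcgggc

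They are chr2:155751018-155751114 and chr7:142434633-142434729 in GRCm38.p6, both on the plus strand, and the matches end 148 and 166 bases before the start. AP-1 subunits and immediate early genes were measured too: of 18, 1 rose, the growth regulator Myc, and 0 fell. Over all genes 2.44% rose. Fosl1, an AP-1 subunit, had a value of 1.27 that did not pass (SE 0.41, adjusted p = 0.0649). Nothing is drawn from these letters about the factor.

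Of the growth and lineage regulators, Myc and Mycn both rose. Myc was at 4.40 to 151 CPM (median 43.2) in Krt8-high and 2.06 to 48.3 (median 15.3) in Krt8-low tumours, a log2 difference of 1.64 (SE 0.34, edgeR adjusted p = 0.0121) that was 0.79 without the tumours scoring above 8. Mycn had medians of 23.3 and 6.69 CPM, a difference of 1.70 (SE 0.42, adjusted p = 0.0224), and 1.09 without those tumours. Of 25 lung and epithelial transcription factors 1 rose, Sox4, at 43.4 to 173 CPM (median 77.3) against 30.6 to 85.5 (median 45.1), by 0.73 (SE 0.15, adjusted p = 0.0123). Foxa2 (0.29, adjusted p = 0.0575) and Klf5 (0.25, adjusted p = 0.0982) did not pass. Of 13 gastric and endoderm genes Ctse and Gkn2, a gastrokine, rose and Muc1 fell. Beside this list and that of the transcription factors, 2.44% of all genes rose and 3.86% fell. Gkn2 reached 255 CPM in CE468 tumour 4 and no Krt8-low tumour exceeded 0.681 CPM, but among the tumours that were not compared Variant 3 Neo CE433 tumour 2 had 322 CPM.

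Stress and metabolic genes moved in both directions. Over all genes 2.44% rose and 3.86% fell, and nothing is read from 1 or 2 calls in a list. Of 24 p53 targets the death genes Bax (0.47, adjusted p = 0.0227) and Bbc3 (0.41, adjusted p = 0.0252) rose and Sesn2, a nutrient sensor, fell by 0.49, in edgeR's test. Of 19 genes of the integrated and unfolded protein stress responses Ddit3 rose by 0.63, and Herpud1, a part of endoplasmic reticulum degradation, fell by 0.84, as did Sesn2. Of 24 glycolysis and hypoxia genes Ndrg1 and Slc16a3 rose and Hk1 (hexokinase) fell by 0.45. Of 25 cytosolic ribosomal protein genes 8 rose, where 2.44% of all genes did, 0 fell and all 25 had a positive value, with a median of 0.25. With the TMM-normalised score the median was 0.08, with 0 members called. Rps18 rose most, by 0.56 (SE 0.14, adjusted p = 0.0253), from a median of 137.1 to 171 CPM. Genes named Rpl or Rps took 1.378% of counts in the high and 0.986% in the low class at the median. Of 23 oxidative phosphorylation genes 0 rose and 1 fell, Sdha of complex II (by 0.38).

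Several other programmes were not called. Of 20 AT1 genes 0 passed: Ager had a value of 0.01 (SE 0.14) and Hopx 0.12 (SE 0.26), while Cav1, a caveolar coat gene, reached 1.69 (SE 0.53, adjusted p = 0.0565). Of 27 cell cycle genes 0 passed although 26 had a positive value; their median was 0.50, and Mki67 had 0.78 (adjusted p = 0.38). With the mean of that list as a covariate 396 genes were called. Also at 0 of those tested were the lists of club and ciliated cells (14 genes), epithelial to mesenchymal transition (14), NF-kB targets (19), TGF-beta targets (13), ERBB receptors and ligands (12), NRF2 targets (15), interferon response (26), MHC class II (8), neuroendocrine cells (4) and H3K36 and fusion genes (7). DESeq2 called between 0 and 2 members in these lists, 2 of the AT1 genes and 0 of the cell cycle genes. In 4 further lists 1 gene fell and 0 rose in edgeR: the Hippo regulator Wwc1 of 16 YAP pathway genes (by 0.34), the MAPK inhibitor Spred1 of 19 MAPK genes (by 0.46), the peptide loader Tapbp of 15 MHC class I genes (by 0.39) and Cldn12, named above. Over all genes tested 3.86% fell. The 3 tested basal genes had 1 call, Krt14, which passed the filter for low counts only through Krt8-high tumours.

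No marker list of another cell type held a call by edgeR: 0 of 9 for fibroblasts, 0 of 7 for smooth muscle and pericytes, 0 of 6 for macrophages, 0 of 5 for endothelium, 0 of 4 for neutrophils, and 0 of 3 each for lymphocytes, mesothelium and blood cells. DESeq2 called 1 gene each among macrophage, lymphocyte and mesothelial markers. The fibroblast median was 2.15. By group it was taken as the log2 ratio of class means, with 0.01 CPM added to each mean. It was 7.75 in Variant 1 Neo, 4.515 in Variant 1 Setd2, 0.34 in Variant 3 Neo and -6.73 in Variant 3 Setd2. For markers near 0 CPM the added constant weighs on these values, and they are no estimate of a fold. In Variant 3 Setd2, CE454 tumour 3 was the only Krt8-low tumour with Col1a1 above 10 CPM. The part of this tumour in the value of its group was not tested. The summed macrophage markers ranged from 5.39 to 28.3 CPM (median 12.8) in Krt8-high and 5.95 to 226 (median 12.6) in Krt8-low tumours.

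The lower genes named by size of change cover several functions. Tshr, the thyrotropin receptor, had the largest difference, -4.98 (SE 1.23, edgeR adjusted p = 0.0229), but it was at 0 in tumours of both classes, and its highest levels, up to 57.5 CPM, were in variant 1 tumours of the low class. The transcription factor Klf15 went from a median of 15.1 to 4.13 CPM (-1.87, SE 0.45, adjusted p = 0.0193). Tspyl4, a nucleosome assembly protein relative, was at 0.919 to 30.9 CPM (median 10.2) in Krt8-high and 15.9 to 58.3 (median 33.4) in Krt8-low tumours, a difference of -1.62 (SE 0.32, adjusted p = 0.01). Cds1, which makes the CDP-diacylglycerol used for phospholipids, fell by 1.20, and Fmo2, a flavin mono-oxygenase abundant in lung, by 1.29. Also lower by 0.97 to 1.23 on the log2 scale were Tmem56, Kcnj13, Tmem8b, the sorbitol dehydrogenase Sord, the ligand Bmp3, the monocarboxylate transporter Slc16a7, the cofilin kinase Limk1 and Cth, the last step of cysteine synthesis from methionine. They were named for the size of their change, not as a group.

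The 4 genes without overlap are given because they are few, and were chosen after their values were seen. Slc25a16, a mitochondrial carrier, was at 23.4 to 53.9 CPM in Krt8-high and 58.1 to 102 in Krt8-low tumours (-0.82, SE 0.13, edgeR adjusted p = 0.00294). Hgsnat, the lysosomal enzyme of heparan sulphate breakdown, was at 32.1 to 153.4 against 153.7 to 258 CPM (-0.87, SE 0.17, adjusted p = 0.0107). Sec63, part of the protein channel of the endoplasmic reticulum, was at 94.5 to 212 against 214 to 319 CPM, and Rassf3 at 80.9 to 171 against 172 to 226 CPM. The gaps were small beside the ranges within each class.

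The 12 tumours ranked 4 to 6 by the same score, which belong to neither class, were fitted on their own. Within them the slope on the score was called for 0 of 16764 genes (0.0%) by edgeR, with 710 at an unadjusted p under 0.05, while DESeq2 called 9. The slope had the sign of the class difference for 315 of the 1139 called genes that could be fitted (27.7%), against 43.4% of all 16540 genes tested in both. Both signs at an unadjusted p under 0.05 were shared by 11 of those 1139 and 286 of those 16540 genes. The range of scores in these tumours is narrow, which limits the slope. It was 6.823 to 7.451 in Variant 1 Neo and 6.878 to 7.34 in Variant 1 Setd2. In Variant 3 Neo it was only 7.153 to 7.242 and in Variant 3 Setd2 7.501 to 7.569. The slopes thus rest mostly on the variant 1 tumours, and a full score unit is wider than the range in any group. Gene groups differed here: the median slope was 1.00 log2 per score unit for the 31 transitional genes and 1.01 for the keratins, which is the sign of their class difference. A slope of this size was not particular to them. It was 1.16 for the AT1 genes, 0.98 for epithelial to mesenchymal transition and 0.92 for NF-kB targets, lists with 0 genes called between the classes. The median slope was 0.65 for the cholesterol, 0.58 for the fatty acid and 0.32 for the AT2 genes, which is opposite in sign to their class difference. The ribosomal genes (-0.35) and the cell cycle genes (-1.78) also had a slope opposite in sign to their class difference. CE468 tumour 1 had the lowest score of the middle tumours of Variant 1 Neo. Its mean log2(CPM + 1) of the cell cycle list was 4.783, against 3.178 in CE468 tumour 3 and 2.985 in CE472 tumour 6. The part of this tumour in the slope was not tested. Krt7 had a slope of 1.88 (edgeR adjusted p = 0.392).

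Fasn and Hmgcs1 of the middle tumours are set beside both classes here for Variant 3 Neo only. The Krt8-low tumours of this group had Fasn at 1440, 1810 and 1520 CPM and its Krt8-high tumours at 929, 725 and 1130 CPM. The 3 tumours ranked in between had 884, 576 and 478 CPM, so that 2 of them lay below every Krt8-high tumour of the group. Hmgcs1 was 163, 191 and 147 CPM in the low, 119, 106 and 114 in the high and 103, 103 and 78.0 in the middle tumours, all 3 below the high ones. In this group the levels of these 2 genes did not follow the rank by score. The other groups are not described in this way, and nothing is extended to them.

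**Figure D5:**
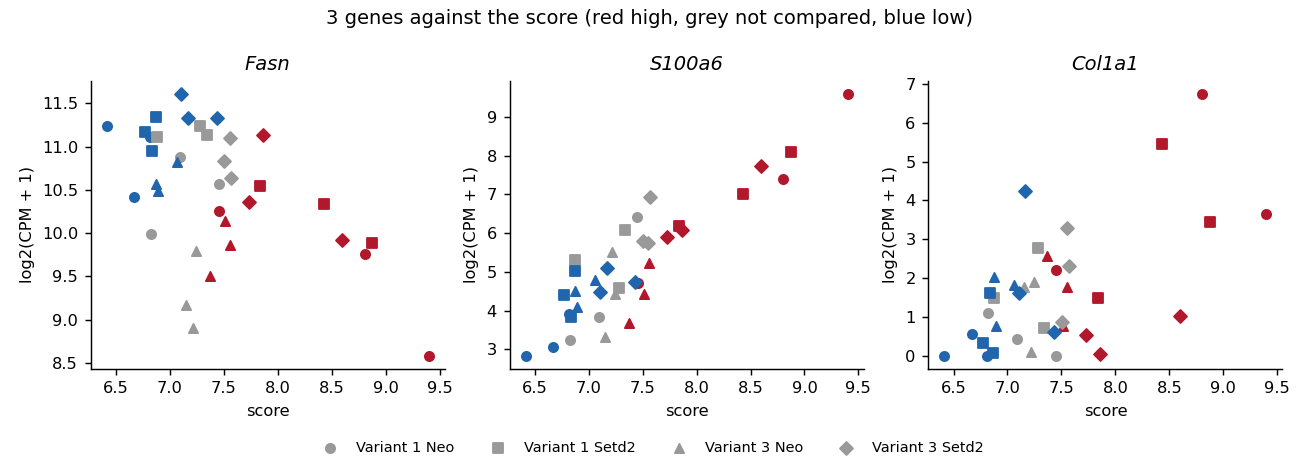
Fasn, S100a6 and Col1a1, as log2(CPM + 1), against the score in 36 tumours; colour gives the class and marker the sample group. S100a6 is highest (771 CPM) and Fasn lowest among compared tumours (383 CPM) in the tumour of highest score, 3 grey Variant 3 Neo points have low Fasn, and Col1a1 exceeds 10 on this normalised scale in 3 Krt8-high tumours and 1 Krt8-low tumour.

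Whether the class difference itself varied with the guide or the variant was tested by interaction terms in edgeR. No gene was called by guide (0.0% of 18564, with 751 at an unadjusted p under 0.05 and 48 called by DESeq2). In simulated counts this guide test recovered 12% of 2-fold and 47% of 4-fold differences. The 0 calls therefore do not show that the class difference was alike under both guides. By variant 2 genes were called (0.0108%), Plxdc2 and Mfap5, both at very low levels, while DESeq2 called 124 and a stricter filter left 0. Of the genes described above, S100a14 had a difference of -1.76 (variant 3 minus variant 1, SE 0.45, adjusted p = 0.328), S100a6 -2.89 (SE 0.97, adjusted p = 0.478) and Syt8 -4.56 (SE 1.28, adjusted p = 0.355), so none was shown to differ between variants. For Chpt1 the variant difference was 0.20 (SE 0.19) and for Fasn 0.27 (SE 0.33). Among genes with a mean of at least 5 CPM, the negative differences of smallest p were Marcks (-2.62, adjusted p = 0.116), Mboat1 (-0.99, adjusted p = 0.162) and the collagen genes Col1a2 (-12.52, adjusted p = 0.209), Col1a1 (-7.77, adjusted p = 0.23) and Col3a1 (-13.71, adjusted p = 0.241). By guide, those of smallest p under the same bound were Gk5 (-2.15, SE 0.52) and Ice2 (1.17, SE 0.29), with adjusted p-values of 1. The positive variant differences of smallest p under that bound were those of Galt, Pacsin3, Naprt, Gatad1 and Eci2, between 0.64 and 0.76, with adjusted p-values of 0.298 to 0.328.

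The targeted gene and the fusion partners did not separate the classes. Setd2 was at 28.2 to 81.1 CPM (median 47.8) in Krt8-high and 28.5 to 78.4 (median 48.8) in Krt8-low tumours, a log2 difference of 0.09 (SE 0.15, edgeR adjusted p = 0.771). In the sgSetd2 groups its class means were 42.3 and 39.5 CPM in variant 1 and 55.1 and 37.0 CPM in variant 3, against 60.7 and 66.7 CPM and 53.2 and 60.6 CPM under sgNeo. The highest value, 81.1 CPM, was in an sgSetd2 tumour, CE456 tumour 10. The other Krt8-high tumours of Variant 3 Setd2 had 56.0 CPM (CE456 tumour 9) and 28.2 CPM (CE450 tumour 3). The Krt8-low tumours of that group had 31.2, 41.1 and 38.6 CPM. The reads checked here are of the whole gene, and a guide can end the protein without lowering its RNA. Eml4 had a difference of -0.21 (SE 0.10, adjusted p = 0.213) and Alk of -0.15 (SE 0.14, adjusted p = 0.576).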

How the data were processed

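Neoplastic cells sorted from 36 mouse lung tumours were profiled by RNA-seq: RNA came from a PicoPure kit, libraries from a SMART-Seq mRNA kit, and paired reads from a NovaSeq, per the labels' protocols. Raw counts, whole numbers per gene with versioned Ensembl IDs, were deposited by the authors as 1 table. The submitters' processing notes name STAR 2.5.3a, R 4.2 and DESeq2 1.38.3. For the counting tool, strand setting, build and annotation: not given in the sources used here. The kit does not mark strand, so overlapping and antisense genes are uncertain, and near-identical copies, as among keratins and ribosomal proteins, may share reads. Of 49585 gene IDs 49326 took symbols and coordinates from GENCODE M21 (GRCm38), which may not be the authors' build. Columns without a sample numbered 0. No sequencing batch is given.

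Classes came from the score defined in the report. The 24 tumours were fitted in R 4.3.3 by edgeR 4.0.16, with TMM scaling, filterByExpr on group and class, glmQLFit (robust) and glmQLFTest with group as covariate, p-values adjusted by Benjamini-Hochberg over all genes. SE is the absolute log2 difference divided by the square root of F. CPM of genes outside the score are TMM-normalised over 36 tumours. Alternatives used DESeq2 1.42.0 and limma 3.58.1. In simulated counts edgeR recovered 47% of 2-fold and 61% of 4-fold changes in the class comparison (17575 genes), with 5 false calls. These figures hold for those counts only. The share of false calls among the genes reported was not tested. Nothing says that tumours of a code came from separate animals, so p-values measure the spread between tumours. Same-coded tumours had residual correlations of -0.391 to 0.404 (median 0.113), against a median of -0.204 for other codes of the same group, so same-coded tumours were more alike, though not in every pair; tumours of the same number in other groups had a median of 0.046.

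Named genes were Setd2, Eml4 and Alk, the 15 higher and 15 lower genes of largest change (adjusted p under 0.05, 5 CPM or more on average in the class where it is higher, same sign in all 4 groups, no predicted or clone name), 5 per direction for each interaction, and up to 4 members of each of 42 lists by smallest p. Further list members are named to account for those called; some are not reported here. The members and the lists were chosen with earlier results of these data known, and the promoter motifs after the results. Counts at 0 were set to a floor of 3 counts over the class. Group values from class means are log2 ratios with a small constant added to each mean CPM. Promoter sequences are RefSeq's (GRCm38.p6).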

Additional observations from a re-analysis of the deposited data

Results flagged for a closer look

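Plxdc2 and Mfap5 were picked out because the class difference itself differed between the fusion variants by edgeR's interaction test. For Plxdc2, a membrane protein, the log2 difference, taken as variant 3 minus variant 1, came to -15.64 (SE 2.31, adjusted p = 0.0129). Its mean was 1.09 normalised CPM in Krt8-high and 0 in Krt8-low tumours of Variant 1 Neo, and 7.98 against 0.0685 in Variant 1 Setd2. In Variant 3 Neo it was 0 against 1.13 and in Variant 3 Setd2 0.00756 against 2.31. For Mfap5, a microfibril protein of connective tissue, the difference was -15.26 (SE 2.31, adjusted p = 0.0129), with 3.52 against 0.0203, 1.04 against 0, 0.0023 against 0.399 and 0 against 1.20 CPM in the same order of groups. Fitted values of this size rest on libraries at 0 and are no estimate of a fold. Neither gene exceeded 13.8 CPM in any tumour compared, and a filter at 1 CPM in 12 tumours, with 0 calls, removed the result. The fibroblast markers Col1a2 and Col1a1 had interaction values of the same sign, -12.52 and -7.77; their part in the result was not tested.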

How the results depend on the processing

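The class comparison gave 1169 calls, and 1190 with RLE scaling, 1172 with upper-quartile scaling, 782 without a filter, 1491 with a stricter filter and 927 with limma voom and the code as a random block. The share of higher genes was 38.8% as reported, 42.1% with RLE, 52.9% with upper-quartile scaling, 51.9% in DESeq2 and 27.5% with voom. DESeq2 gave 2275 calls and the continuous score in 36 tumours 2969. The count fell to 0 with the title code as replicate block, with the tumour number as replicate block (2640 at an unadjusted p under 0.05), with the 2 highest and 2 lowest per group (3064), with the highest against the lowest tumour of each code (1410), with a TMM-normalised score (2097) and, as chosen after seeing the data, without tumours of Col1a1 above 10 CPM (2874). It was 3 with 4 and 4 per group, 433 with a score of z-scores, 12, 3, 719, 70 and 334 with the score without Krt8, Krt18, Krt19, Sfn and Lgals3, and 396 with cell cycle, 1046 with the fibroblast list and 1059 with the macrophage list as covariate. With alternatives chosen after seeing the data it was 75 without scores above 8 and 356 with Col1a1 as covariate. The cause was not tested.

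Leaving out 1 tumour gave 511 to 1560 calls. Those that moved the count by over 1.5 times were CE472 tumour 4 (511), CE454 tumour 3 (588), CE479 tumour 2 (687), CE483 tumour 3 (718), CE456 tumour 10 (723), CE468 tumour 4 (738), CE450 tumour 5 (741), CE429 tumour 1 (745) and CE467 tumour 3 (757). Leaving out 1 code gave 148 to 1105, with CE456 (148), CE479 (215), CE483 (319), CE429 (392), CE472 (521), CE454 (588), CE468 (738) and CE450 (769) moving it as far. Calls in all 36 left-out fits numbered 107. Of 67 named called genes followed, 0 reversed under any alternative and 9 kept their call in all left-out fits. These genes were chosen by their call, and the alternatives share most tumours and the score with the main fit. Few reversals could thus occur, and their absence is no support. In the 12 tumours outside the comparison, the slope on the score had the sign of the class difference for 27.7% of called genes and 43.4% of all genes.

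The guide interaction gave 0 calls except in DESeq2 (48). The variant interaction gave 2 as reported, 124 in DESeq2, 13 with the continuous score, 5 with the score without Cldn4, 4 with z-scores and 0 with a stricter filter, either replicate block, voom, 2 or 4 tumours per group, 1 pair per code, a TMM-normalised score, the score without Krt8, Krt18 or Sfn, fibroblast or Col1a1 covariates, or without tumours of high Col1a1 or high score. Leaving out 1 tumour gave 0 to 3 and leaving out 1 code 0 to 2. The slope in the 12 other tumours gave 0, 1 without a filter and 9 in DESeq2. The mean log2 library total differed by 0.18, 0.19 with 2 and 0.15 with 4 tumours per group.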
